A study of Rattus norvegicus with 6 samples.

Results

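The 10 genes described here form the route by which liver cells sense lipopolysaccharide (LPS), the outer-membrane lipid of Gram-negative bacteria, together with the genes that switch the response off. They are Lbp, Cd14, Tlr4, Ly96, Tlr2, Myd88, Irak3, Nfkbia, Tnfaip3 and Il1b, and each was read by the probe sets whose only gene symbol in the annotation of the array is that gene. This gave 10 probe sets, 1 per gene, of the 31042 non-control probe sets on the array, which name 14217 genes by a symbol of their own. In the livers of BBDR.lyp/lyp rats, Lbp was higher than in BBDR.+/+ rats before as well as after hyperglycemia began, and Cd14 was lower after the onset than before it. The other 8 genes passed the test in none of the 3 comparisons.

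Total liver RNA from 3 groups of rats was measured on the rat array RG230 2.0 of Affymetrix, with 2 arrays per group. BBDR.lyp/lyp rats carry 2 copies of the lymphopenia (lyp) mutation, a frameshift in Gimap5 that was brought with its chromosomal region from the diabetes prone BB rat into the diabetes resistant (BBDR) background, and they develop diabetes spontaneously. They were sampled at 50 days of age, within 5 days, before hyperglycemia (pre-hyperglycemia), and at 55 days, within 5 days, shortly after it (post-hyperglycemia). BBDR.+/+ rats of 55 days, within 5 days, carry no mutation at the locus and served as the controls. No group was treated. Since hyperglycemia and age changed together, they cannot be told apart between the pre- and post-hyperglycemia arrays, and the congenic region differs between the genotypes along with Gimap5. Between the pre-hyperglycemia arrays (50 days) and the BBDR.+/+ arrays (55 days), genotype and age cannot be told apart either. The sources do not say whether the 2 arrays of a group came from separate rats or from pools, so p-values measure the spread between these arrays, which may be technical. Whole liver holds hepatocytes, Kupffer cells and other cells, so fewer cells of a type and less RNA per cell cannot be told apart.

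Kupffer cells, the macrophages of the liver sinusoids, meet gut-derived LPS in portal blood. LPS-binding protein, secreted by hepatocytes, hands LPS to CD14, which passes it to the receptor complex of TLR4 and MD-2, the product of Ly96. The adaptor MyD88 then links the receptor to the IRAK kinases and to the release of the transcription factor NF-kB, which drives cytokine genes and also its own inhibitors.

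NF-kB binds a short DNA motif, the kB site, and the feedback inhibitors are textbook examples of genes with such sites. The windows from 250 bases before to 50 bases after the gene start were therefore searched on both strands, in RefSeq sequence of the rat build GRCr8, where 8 of the 10 genes had an entry. Lbp and Ly96 had none. The kB consensus lay in 4 of the 8 windows, those of Tlr2, Irak3, Nfkbia and Tnfaip3, and in 7.51% of all 33469 promoter windows of this length. The looser core GGGNNNNNCC, which every consensus match also fits, lay in 5 of the 8, Cd14 being added, and in 47.3% of all windows. The windows of the 3 feedback inhibitors are shown because the comparisons of the NF-kB feedback turn on these genes, with consensus matches in capitals. They lie on the minus strand, Irak3 at chr7:57598582-57598881, Nfkbia at chr6:78597023-78597322 and Tnfaip3 at chr1:15543930-15544229.
Irak3: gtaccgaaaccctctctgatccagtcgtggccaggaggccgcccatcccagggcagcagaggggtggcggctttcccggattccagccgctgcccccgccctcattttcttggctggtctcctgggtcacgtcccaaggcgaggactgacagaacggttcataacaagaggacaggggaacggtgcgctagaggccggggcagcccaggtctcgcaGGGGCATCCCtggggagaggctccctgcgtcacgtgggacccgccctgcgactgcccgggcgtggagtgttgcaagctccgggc
Nfkbia: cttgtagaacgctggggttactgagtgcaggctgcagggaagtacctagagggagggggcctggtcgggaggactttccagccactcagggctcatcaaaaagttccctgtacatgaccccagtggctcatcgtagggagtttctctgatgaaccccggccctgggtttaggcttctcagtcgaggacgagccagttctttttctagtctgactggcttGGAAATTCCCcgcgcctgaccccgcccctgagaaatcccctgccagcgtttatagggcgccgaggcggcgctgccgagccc
Tnfaip3: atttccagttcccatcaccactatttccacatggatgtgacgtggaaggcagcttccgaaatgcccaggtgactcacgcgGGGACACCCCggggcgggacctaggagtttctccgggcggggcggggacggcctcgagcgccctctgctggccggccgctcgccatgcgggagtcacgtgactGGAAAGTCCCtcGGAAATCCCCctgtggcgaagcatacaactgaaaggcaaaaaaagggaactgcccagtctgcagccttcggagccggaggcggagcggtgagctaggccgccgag
Irak3 had its match from -34 to -25 and Nfkbia from -31 to -22, counted from the gene start with no position 0. Tnfaip3 had 3 matches, from -170 to -161, -67 to -58 and -55 to -46. A match describes the letters only and was not tested as a binding site.

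The arrays had nearly equal distributions, with medians from 5.90 to 5.94 on the log2 scale. Gimap5 was at 6.43 and 6.45 in BBDR.+/+, at 5.52 and 5.85 pre-hyperglycemia and at 5.71 and 5.91 post-hyperglycemia, lower on every lyp/lyp array. The 7 hepatocyte markers measured had a summed linear signal of 96520.3 to 98195.4 over the 6 arrays, and none of them was called in any comparison (limma; 0, 1 and 2 of the 7 at an unadjusted p under 0.05 in the order of comparisons used below). The post-hyperglycemia arrays stood apart in the signal from the 5' end of transcripts. The 3' minus 5' difference of the beta-actin control probe sets (log2) averaged 1.24 in BBDR.+/+, 1.42 pre-hyperglycemia and 2.07 post-hyperglycemia, and that of GAPDH 0.58, 0.61 and 1.35. This difference moves with every comparison that involves post-hyperglycemia arrays, and its part in them was not tested.

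Groups were taken from the deposited labels, and a positive difference means the higher level in the group named first. The direction of the ratios in the study's own fold change table is not stated, and there Cd36, Dusp1 and Scarb1 carry the opposite sign to the one found here. For Scarb1 post-hyperglycemia against BBDR.+/+ this holds at its dimmer probe set (-0.74, log2) and not at its brighter (0.01). Levels are log2 signals of a probe set and do not rank one gene against another. The mean signals of the 10 probe sets lay between the 42.9th and the 96.8th percentile of all probe sets. Within a group, the SD of the 2 arrays of a member was 0.13 at the median and 0.34 at the most (log2).

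**Figure D1:**
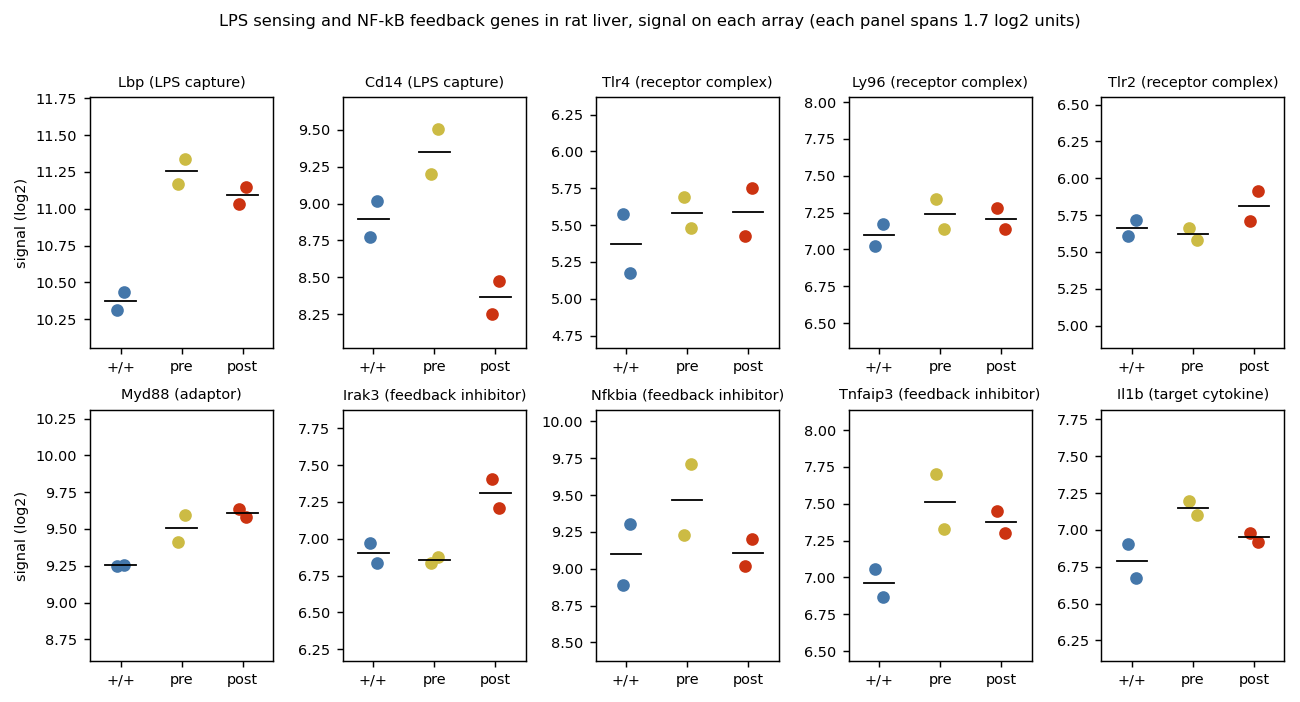
Log2 signal of the probe set of each of the 10 genes on each array (points, 2 per group) with the group mean (line), for BBDR.+/+ (+/+), pre-hyperglycemia (pre) and post-hyperglycemia (post); every panel spans the same height in log2 units at its own level. Lbp lay between 11.03 and 11.34 on the 4 lyp/lyp arrays, above 10.31 and 10.43 in BBDR.+/+, and Cd14 was lowest on the post-hyperglycemia arrays at 8.25 and 8.48.

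The genes of LPS capture were those that passed the test. Lbp, which encodes the plasma protein that extracts LPS monomers and presents them to CD14, was at 10.31 and 10.43 (log2) in BBDR.+/+, at 11.17 and 11.34 pre-hyperglycemia and at 11.03 and 11.15 post-hyperglycemia. All 4 lyp/lyp arrays lay above both BBDR.+/+ arrays, and the post-hyperglycemia arrays lay just under the pre-hyperglycemia arrays. Against BBDR.+/+, Lbp was 1.65-fold higher post-hyperglycemia (0.72 ± 0.11, log2, SE; limma adjusted p = 0.00483) and 1.84-fold higher pre-hyperglycemia (0.88 ± 0.11; limma adjusted p = 0.0058). The difference between post- and pre-hyperglycemia was -0.16 (95% interval -0.41 to 0.08; limma adjusted p = 0.559), so that a small change at the onset was not detectable here. The first of these calls held whichever array was left out. The second ended without pre-hyperglycemia replicate 2 (0.80, adjusted p = 0.0516), without BBDR.+/+ replicate 1 (0.82, adjusted p = 0.0963) and without BBDR.+/+ replicate 2 (0.94, adjusted p = 0.0656).

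Cd14, the co-receptor that receives LPS from LBP on macrophages and in plasma, was at 8.77 and 9.02 in BBDR.+/+, at 9.20 and 9.50 pre-hyperglycemia and at 8.25 and 8.48 post-hyperglycemia. The 3 groups did not overlap, with pre-hyperglycemia highest and post-hyperglycemia lowest. Between pre- and post-hyperglycemia Cd14 fell by 0.99 ± 0.14 on the log2 scale (SE; 95% interval of the difference -1.30 to -0.68; limma adjusted p = 0.00679), a level 1.99-fold lower. This call ended without pre-hyperglycemia replicate 2 (-0.84, adjusted p = 0.0555) or post-hyperglycemia replicate 1 (-0.88, adjusted p = 0.0517), and with a 3'-5' difference covariate the value was -0.08 (adjusted p = 0.978). Against BBDR.+/+ the post-hyperglycemia difference of -0.53 (95% interval -0.84 to -0.23) missed the threshold, with a limma adjusted p of 0.0530, and the pre-hyperglycemia difference was 0.46 (adjusted p = 0.209).

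The receptor genes gave no call. Tlr4, the signalling receptor for LPS, was at 5.57 and 5.18 in BBDR.+/+, at 5.69 and 5.48 pre-hyperglycemia and at 5.43 and 5.75 post-hyperglycemia. These ranges overlapped in all 3 comparisons, and the probe set was dim, at the 42.9th percentile. Ly96, whose product MD-2 holds the lipid part of LPS in the receptor, was at 7.02 and 7.17 in BBDR.+/+, at 7.34 and 7.14 pre-hyperglycemia and at 7.28 and 7.13 post-hyperglycemia, again with overlap throughout. Tlr2, the receptor for bacterial lipoproteins, was at 5.61 and 5.72, at 5.66 and 5.58 and at 5.71 and 5.91 in the same order of groups, at the 46.2nd percentile. Its post-hyperglycemia arrays lay above the pre-hyperglycemia arrays by a mean of 0.19 (95% interval -0.06 to 0.44; limma adjusted p = 0.478). Post-hyperglycemia against BBDR.+/+, the 95% intervals were -0.13 to 0.56 for Tlr4, -0.15 to 0.37 for Ly96 and -0.10 to 0.40 for Tlr2, so that none of these intervals reached a rise of 1 log2 unit.

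Myd88, the adaptor shared by most Toll-like receptors and the interleukin-1 receptor, was at 9.25 and 9.26 in BBDR.+/+, at 9.41 and 9.60 pre-hyperglycemia and at 9.64 and 9.58 post-hyperglycemia. Every lyp/lyp array was above both BBDR.+/+ arrays. The difference from BBDR.+/+ was 0.36 post-hyperglycemia (95% interval 0.12 to 0.59; limma adjusted p = 0.0873) and 0.25 pre-hyperglycemia (adjusted p = 0.400), and neither passed the test.

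Among the feedback inhibitors, Irak3 had its 2 highest values on the post-hyperglycemia arrays without passing the test. It encodes IRAK-M, a kinase-like protein that blocks signalling from MyD88 and is abundant in macrophages. It was at 6.97 and 6.84 in BBDR.+/+, at 6.83 and 6.88 pre-hyperglycemia and at 7.41 and 7.21 post-hyperglycemia. Both post-hyperglycemia arrays were above the other 4, which overlapped among themselves. The differences were 0.41 from BBDR.+/+ (95% interval 0.16 to 0.65; limma adjusted p = 0.0655) and 0.45 from pre-hyperglycemia (95% interval 0.20 to 0.70; limma adjusted p = 0.0683), short of the threshold.

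Tnfaip3, which encodes the ubiquitin-editing enzyme A20 that stops NF-kB activation, was at 7.06 and 6.86 in BBDR.+/+, at 7.70 and 7.33 pre-hyperglycemia and at 7.45 and 7.30 post-hyperglycemia. All lyp/lyp arrays were above the BBDR.+/+ arrays, by a mean of 0.55 pre-hyperglycemia (95% interval 0.25 to 0.86; limma adjusted p = 0.129) and 0.42 post-hyperglycemia (adjusted p = 0.118). Nfkbia encodes IkB-alpha, which holds NF-kB in the cytoplasm and is remade within the response. It was at 8.89 and 9.30 in BBDR.+/+, at 9.23 and 9.71 pre-hyperglycemia and at 9.02 and 9.20 post-hyperglycemia. The post-hyperglycemia arrays lay inside the range of BBDR.+/+ (difference 0.01, 95% interval -0.37 to 0.39) and under both pre-hyperglycemia arrays (-0.36, 95% interval -0.74 to 0.02; limma adjusted p = 0.372).

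Il1b, the cytokine made as a target of this route, was at 6.90 and 6.67 in BBDR.+/+, at 7.19 and 7.10 pre-hyperglycemia and at 6.98 and 6.92 post-hyperglycemia. The groups did not overlap and pre-hyperglycemia was highest. None of its differences passed the test, the largest being 0.36 between pre-hyperglycemia and BBDR.+/+ (95% interval 0.11 to 0.61; limma adjusted p = 0.228).

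Counted together, 1 of the 10 genes was called in each comparison at an adjusted p under 0.05, Lbp higher post-hyperglycemia than in BBDR.+/+, Cd14 lower post- than pre-hyperglycemia, and Lbp higher pre-hyperglycemia than in BBDR.+/+. Over all probe sets the called shares were 5.15% (1.89% higher and 3.26% lower), 2.18% (0.718% and 1.46%) and 0.718% (0.464% and 0.254%) in that order, and 1 call among 10 is too few to read as a result about the group. At an unadjusted p under 0.05, limma gave 5, 2 and 5 of the 10 genes, and 6108, 4638 and 3533 of all 31042 probe sets. The arrays did not overlap for 6, 6 and 5 of the 10 genes, and for 48.8%, 44.5% and 42.6% of all probe sets, shares near those of the 10 genes. The median difference of the 10 genes was 0.19, -0.08 and 0.30 (log2), and that of all probe sets 0.01, 0.01 and -0.00. Against BBDR.+/+, 9 of the 10 differences were positive post-hyperglycemia and 8 pre-hyperglycemia, beside 16365 and 15238 of all 31042 probe sets. These 2 comparisons share the BBDR.+/+ arrays and are not independent of each other. Between post- and pre-hyperglycemia, 4 were positive and 6 negative, beside 16168 positive and 14874 negative over all probe sets.

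**Figure D2:**
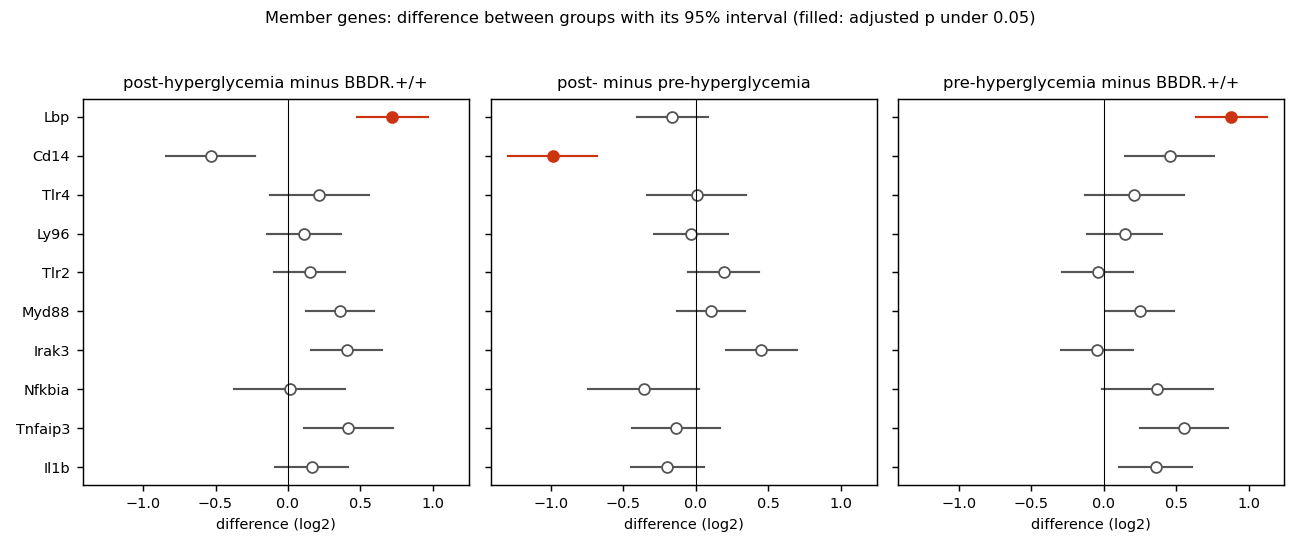
Differences between groups (log2, points) with their 95% intervals from limma (bars) for the 10 genes in the 3 comparisons; filled points have an adjusted p under 0.05. Lbp is filled at 0.72 and 0.88 against BBDR.+/+ and Cd14 at -0.99 between post- and pre-hyperglycemia, and the intervals of the receptor genes Tlr4, Ly96 and Tlr2 include 0 in every panel.

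The other genes of the pathway were taken from a list of 107, of which 88 were measured, each at its brightest probe set. Post-hyperglycemia against BBDR.+/+, 6 were higher, 3 were lower and 79 did not pass. Between post- and pre-hyperglycemia, 1 was higher and 3 were lower, and between pre-hyperglycemia and BBDR.+/+ 2 were higher. Over the brightest probe sets of all 14217 genes, 3.52% (2.29% higher and 1.24% lower), 1.37% (0.703% and 0.668%) and 0.802% (0.584% and 0.218%) were called. The list medians were 0.07, 0.02 and 0.05 (log2), beside 0.04, 0.01 and 0.02 for all genes.

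The largest change of the list was that of Cxcl1, an NF-kB target whose product attracts neutrophils. It was at 6.61 and 6.68 (log2) in BBDR.+/+, at 7.97 and 8.25 pre-hyperglycemia and at 9.11 and 9.52 post-hyperglycemia. The groups did not overlap and rose in that order, with differences of 2.67 post-hyperglycemia from BBDR.+/+ (limma adjusted p = 6.47e-05), 1.21 from pre- to post-hyperglycemia (adjusted p = 0.00361) and 1.46 pre-hyperglycemia from BBDR.+/+ (adjusted p = 0.00212). The last of these ended without either BBDR.+/+ array (1.42 and 1.49). Of the 28 NF-kB targets measured, the other gene called was Il1a, an interleukin-1 cytokine that acts on the same receptor as Il1b and was lower post- than pre-hyperglycemia (-0.51, limma adjusted p = 0.0396). That call ended without any of the 6 arrays in turn (-0.60 to -0.43). A dimmer probe set of Il1a gave -1.21 there and -1.02 against BBDR.+/+. Tnf, the first cytokine of the LPS response, was not called, at -0.21, 0.02 and -0.23 in the 3 comparisons.

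Of 6 genes of LPS binding and clearance, Cd36, a scavenger receptor that also takes up fatty acids, was at 10.07 and 10.29 in BBDR.+/+, at 9.89 and 10.17 pre-hyperglycemia and at 9.04 and 9.45 post-hyperglycemia. The post-hyperglycemia arrays lay under the other 4. The difference was -0.93 from BBDR.+/+ (limma adjusted p = 0.00661) and -0.78 from pre-hyperglycemia (adjusted p = 0.0285). Without BBDR.+/+ replicate 2 the first was not called (-0.82), nor was the second without post-hyperglycemia replicate 1 (-0.58), pre-hyperglycemia replicate 2 (-0.64) or 1 of the BBDR.+/+ arrays (-0.78 for each). With a 3'-5' difference covariate both turned positive (0.12 and 0.13). Scarb1, the HDL receptor that also binds LPS, was lower post- than pre-hyperglycemia (-0.48, limma adjusted p = 0.0499), a call that ended without any of the 6 arrays (-0.56 to -0.41). Its dimmer probe set was called lower there (-1.05, limma adjusted p = 0.00764) and against BBDR.+/+ (-0.74, limma adjusted p = 0.0198), where the brightest was at 0.01.

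Of 9 pattern recognition receptors and co-receptors, 2 were higher post-hyperglycemia than in BBDR.+/+. Tlr7, an endosomal receptor for single-stranded RNA, was at 4.03 and 3.94 in BBDR.+/+ and at 4.52 and 4.74 post-hyperglycemia (0.64, limma adjusted p = 0.00839), with a dim probe set at the 20.9th percentile. Ly86, whose product MD-1 is the partner of the Toll-like protein CD180, was higher by 0.43 (limma adjusted p = 0.0347). Tlr7 was no longer called without BBDR.+/+ replicate 2 (0.60) or post-hyperglycemia replicate 2 (0.53), and Ly86 without any of the 4 arrays compared (0.39 to 0.48).

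Of 21 genes grouped as adaptors and kinases, the only gene called was neither but a receptor, Il1r1, the interleukin-1 receptor that signals through MyD88. Il1r1 was higher by 0.62 post-hyperglycemia than in BBDR.+/+ (limma adjusted p = 0.00942). It was at 9.05 and 9.01 in BBDR.+/+, at 9.49 and 9.38 pre-hyperglycemia and at 9.55 and 9.75 post-hyperglycemia, while its dimmer probe sets gave -0.05 and -0.10. The call ended without BBDR.+/+ replicate 1 (0.64), BBDR.+/+ replicate 2 (0.60) or post-hyperglycemia replicate 2 (0.53). The kinase Irak4, the ubiquitin ligase Traf6 and the adaptor Ticam1, which act next to Myd88 or in the parallel arm from TLR4, were not called at their brightest probe sets. Together with Rela, Nfkb1 and Tnf, their differences ran from -0.24 to 0.07 over the 3 comparisons. A dimmer probe set of Traf6 was called lower, at -0.83 and -0.57, in the comparisons with post-hyperglycemia arrays. None of the 4 NF-kB subunits measured was called (limma; 1, 0 and 1 of them at an unadjusted p under 0.05), with medians of -0.03, -0.13 and 0.07.

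Of 20 further genes grouped as feedback inhibitors, 2 were higher and 2 lower post-hyperglycemia than in BBDR.+/+. Nfkbiz, an atypical IkB protein of the nucleus, was at 7.06 and 7.09 in BBDR.+/+, at 7.68 and 7.81 pre-hyperglycemia and at 7.68 and 7.96 post-hyperglycemia, so that all lyp/lyp arrays were above BBDR.+/+. It was higher by 0.75 post-hyperglycemia (limma adjusted p = 0.0056) and by 0.67 pre-hyperglycemia (adjusted p = 0.0356), and its dimmer probe set gave -0.06 post-hyperglycemia. The first call ended without BBDR.+/+ replicate 2 (0.77) and the second without any of the 4 arrays compared (0.60 to 0.74).

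Bcl3, another nuclear IkB protein, was higher by 0.59 post-hyperglycemia than in BBDR.+/+ (limma adjusted p = 0.00822), with 0.14 and -0.03 at its other probe sets, and the call ended without BBDR.+/+ replicate 2 (0.54). Cyld, a deubiquitinase that restrains NF-kB, was lower (-0.55, limma adjusted p = 0.0142), with -0.27 at its other probe set, and the call ended without BBDR.+/+ replicate 1 (-0.50), BBDR.+/+ replicate 2 (-0.60) or post-hyperglycemia replicate 1 (-0.48). Dusp1, the phosphatase that ends MAP kinase signalling, was lower (-0.51, limma adjusted p = 0.0169). Its dimmer probe set was called lower both against BBDR.+/+ (-2.02) and against pre-hyperglycemia (-1.37, limma adjusted p = 0.00745), where the brightest was not (-0.22). The call of the brightest ended without any of the 4 arrays compared (-0.56 to -0.46). At the brightest probe sets the nuclear IkB genes Nfkbiz and Bcl3 were thus higher and Cyld and Dusp1 lower, and 16 of the 20 did not pass. The group is a list, and whether each of its genes inhibits NF-kB here was not tested. Tollip, an inhibitor of the IRAK kinases chosen here after its values were seen, was among those that did not, but 2 dimmer probe sets were called lower against BBDR.+/+ (-1.21 and -0.67, limma adjusted p = 0.00389 and 0.0183), the first also against pre-hyperglycemia (-1.11, adjusted p = 0.0118). Of all 33 dimmer probe sets of the 88 genes, 1 was called higher and 10 lower post-hyperglycemia than in BBDR.+/+, and 5 were called lower than pre-hyperglycemia. Over the whole array, 1012 of 31042 probe sets were called lower against BBDR.+/+, but only 176 of the 14217 brightest. Against pre-hyperglycemia these numbers were 454 and 95. Lower calls thus lay mostly outside the brightest probe sets on the array in general. Those outside include 9780 probe sets with no symbol and 436 with several, so they are not a like comparison for the 33. The called share among dimmer probe sets of all named genes was not counted.

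**Figure D3:**
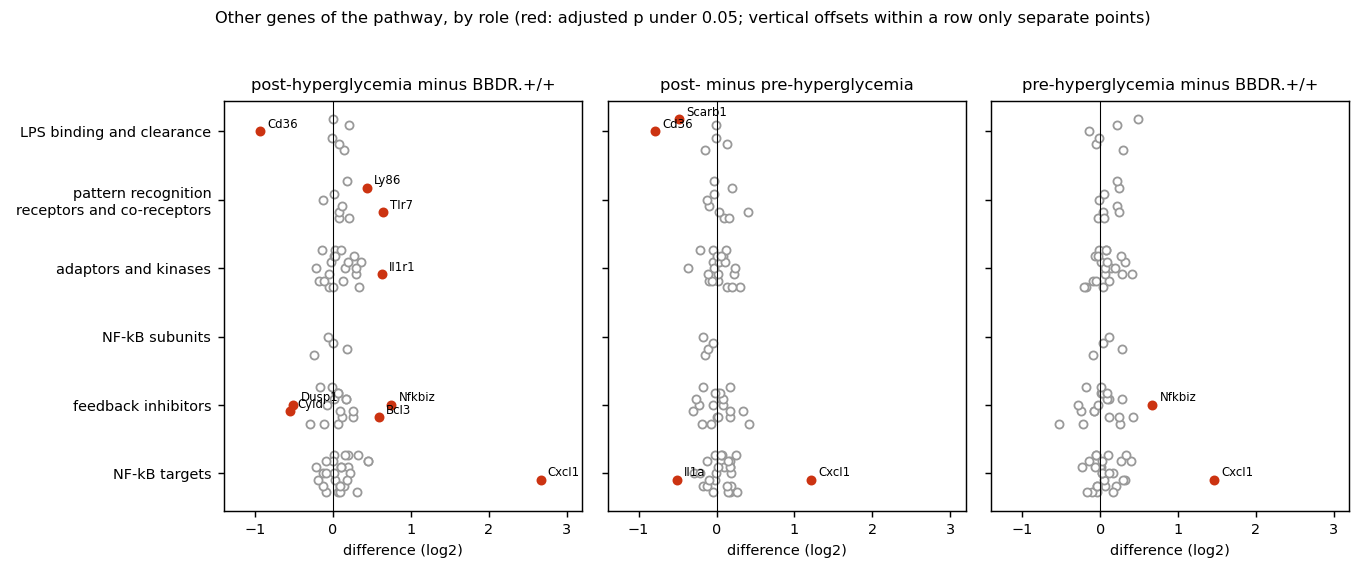
Difference (log2, horizontal axis) of each of the 88 measured genes of the pathway list in the 3 comparisons, grouped by role; filled red points with names have a limma adjusted p under 0.05. Most genes lie close to 0, and Cxcl1 stands apart at 2.67, 1.21 and 1.46.

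Markers of other cells moved with some of these genes. Of the 10 Kupffer cell markers measured of 14 listed, 4 were higher post-hyperglycemia than in BBDR.+/+ (C1qa 0.40, Cd163 0.73, Cd5l 0.43 and Clec4f 0.42), and none was called in the other comparisons (limma; 1 at an unadjusted p under 0.05 between post- and pre-hyperglycemia and 7 between pre-hyperglycemia and BBDR.+/+). Their summed linear signal was 11699 to 11827 in BBDR.+/+, 14154 to 14557 pre-hyperglycemia and 14569 to 15440 post-hyperglycemia. Among the member genes, Lbp, Myd88, Tnfaip3 and Il1b likewise had both BBDR.+/+ arrays under every lyp/lyp array. The means of Tlr4, Ly96 and Nfkbia were also lowest in BBDR.+/+, with overlap of arrays. How many of all probe sets show either order was not counted, so these orders are not read as a trait of the members. Cd14 had its lowest signal on the post-hyperglycemia arrays, where this sum was highest. Of 6 neutrophil markers, S100a8 and S100a9 were higher in both lyp/lyp groups than in BBDR.+/+. The summed signal of all 6 was 140 to 141 in BBDR.+/+, 235 to 293 pre-hyperglycemia and 239 to 253 post-hyperglycemia, and that of the other 4, none of them called, 79.6 to 81.8, 83.5 to 85.4 and 86.3 to 86.6, so that S100a8 and S100a9 carried most of the rise in the sum. The summed signal of 5 sinusoidal endothelial markers was also lowest in BBDR.+/+ (3056 to 3470, beside 3822 to 4004 pre-hyperglycemia and 3683 to 3876 post-hyperglycemia), as was that of 6 stellate cell markers (2327 to 2340, 2780 to 2874 and 2644 to 2673). Of these and the 5 monocyte markers, Pecam1 (0.49, limma adjusted p = 0.034) and Ly6c (0.43, adjusted p = 0.0472) were called higher post-hyperglycemia than in BBDR.+/+. Ly6c did not stand for the monocyte markers, of which 2 differences were positive and 3 negative there, with a median of -0.03 (log2). By contrast, 7 T cell markers had their highest summed signal in BBDR.+/+ (440 to 468, beside 382 to 430 pre-hyperglycemia and 386 to 397 post-hyperglycemia). None of these T cell markers was called in any comparison (limma; 2, 1 and 2 at an unadjusted p under 0.05). The part of all these cells in the differences described was not tested. No value was listed at 0.

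By their pattern over the 6 arrays, the genes most like Lbp were Gna12 (Pearson r = 0.994), Irgq (0.990), Stab2 (0.990), Col14a1 (0.989) and Acbd6 (0.989), of 20825 other probe sets with 1 symbol. With 137 probe sets at an r over 0.95 and 3 groups of 2 arrays, the ranking is a description only.

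The calls of the 10 genes depended on the processing, for genes near the threshold and also for Lbp and Cd14. With the methods' t-test no member gene was called. Its adjusted p for Lbp against BBDR.+/+ was 0.439 post-hyperglycemia and 0.503 pre-hyperglycemia. For Cd14 post- against pre-hyperglycemia the t-test adjusted p was 0.537. Post-hyperglycemia against BBDR.+/+, Cd14 passed with quantile normalization (-0.58, limma adjusted p = 0.0373), with the top 60% of probe sets by mean, with the 4 arrays compared alone, with an intensity trend and with a replicate block. Irak3 passed in both comparisons with post-hyperglycemia arrays with ribosomal protein genes as the centre of each array (0.46 and 0.51), with the top 60% of probe sets, with an intensity trend and with a replicate block. Myd88 passed against BBDR.+/+ with ribosomal centring (0.41, adjusted p = 0.0488) and with an intensity trend. A 3'-5' difference covariate left Lbp and Cd14 uncalled in the comparisons with post-hyperglycemia arrays, with Lbp at 1.26 (adjusted p = 0.594) against BBDR.+/+. The covariate separates the post-hyperglycemia arrays from the other 4, and in this fit the group and the covariate can hardly be told apart.

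**Figure D4:**
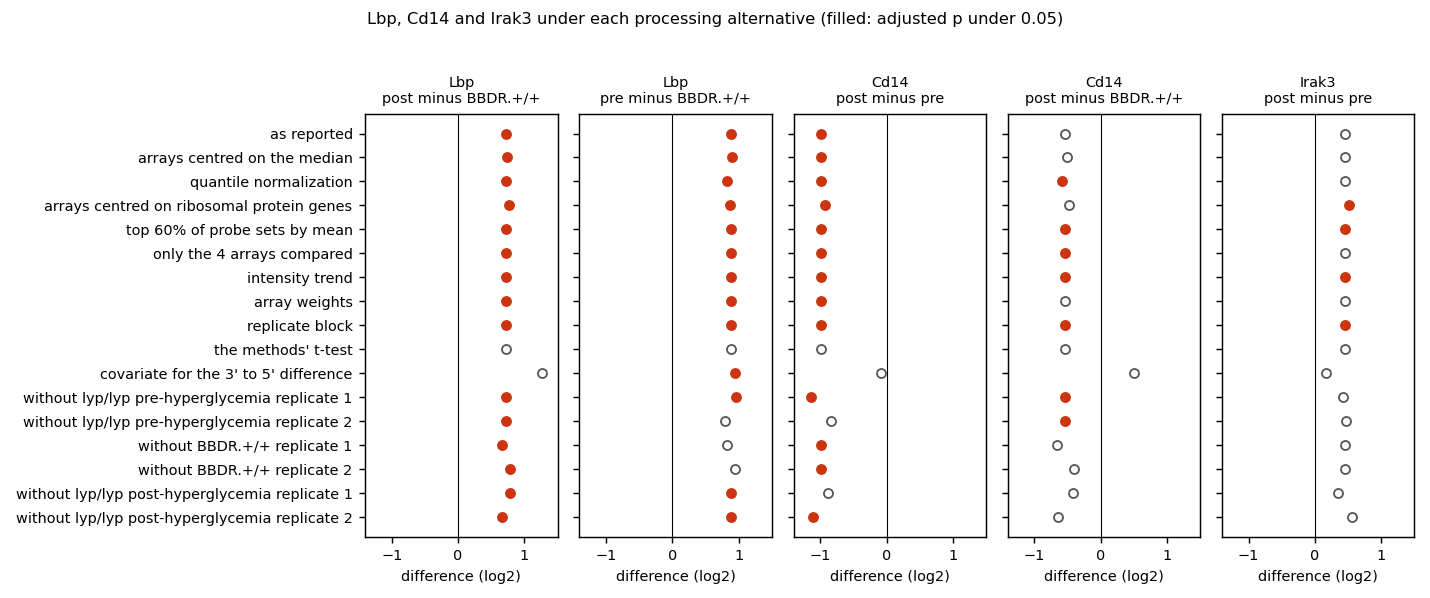
Differences (log2) of Lbp, Cd14 and Irak3 as reported and under each processing alternative or with 1 array left out; filled points have an adjusted p under 0.05. Lbp post-hyperglycemia against BBDR.+/+ stays between 0.66 and 1.26, and Cd14 against BBDR.+/+ crosses 0 with the 3'-5' difference covariate, at 0.50.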

How the data were processed

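Total liver RNA was hybridized to 6 Affymetrix RG230 2.0 arrays, 2 in each of 3 groups taken from the sample labels. Affymetrix Expression Console served the authors for quantification and Partek Genomic Suite for normalization, and 1 log2 signal per probe set and array was deposited. For the algorithm and versions, no entry was given in the sources used here. Labels name a 3' IVT kit and a fast before collection, whereas the methods name another amplification kit and free access to food. No probe-level intensities or detection calls were used, so that the number of arrays limits the precision. Of 31099 probe sets, 57 controls were set aside. Symbols came from the annotation of the platform (20826 probe sets with 1 symbol, 436 with several, 9780 with none), and all 10 member genes matched RefSeq gene identifiers.

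limma 3.58.1 in R 4.3.3 was fitted to all 6 arrays with 1 mean per group and with variances moderated over all probe sets (degrees of freedom 3 residual, 7.70 prior). Probe sets with a Benjamini-Hochberg adjusted p under 0.05 over all 31042 were called, and intervals are at 95%. No filter on signal was applied. The script was tested on simulated data. Named genes were all members, the pathway genes called in any comparison, Rela, Nfkb1, Irak4, Traf6, Ticam1 and Tnf, and the 5 probe sets most like Lbp. The members and lists were chosen with earlier results of these data known. The alternatives tried were other centring between arrays, a filter on dim probe sets, other variance models and weights, a replicate block, the methods' t-test, a 3'-5' difference covariate, averaging the probe sets of each gene, and omitting each array in turn. Figures were drawn with Python 3.11.15, pandas 2.3.3 and matplotlib 3.10.9.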

Additional observations from a re-analysis of the deposited data

How the results depend on the processing

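Of 480 values of the 10 genes under the alternatives, 433 kept their direction and their side of the threshold, 19 passed it newly, 10 no longer passed and 18 changed sign. Member genes called post-hyperglycemia versus BBDR.+/+ (1 as reported) were 2 with quantile normalization or only the 4 arrays compared, 3 with ribosomal centring or the top 60% of probe sets, 4 with an intensity trend and 0 with the methods' t-test or the 3'-5' difference covariate (1 to 2 leaving out each array). Post- versus pre-hyperglycemia (1) they were 2 with ribosomal centring, the top 60% or an intensity trend and 0 with the t-test or the covariate (0 to 1 leaving out each array), and pre-hyperglycemia versus BBDR.+/+ (1) 0 with the t-test (0 to 1). Pathway genes called numbered 0 with the t-test or the covariate post-hyperglycemia versus BBDR.+/+ (9 as reported, 1 to 9 leaving out each array). Post- versus pre-hyperglycemia (4) they were 2 with ribosomal centring, 1 with only the 4 arrays compared and 0 with the t-test or the covariate (1 to 2), and pre-hyperglycemia versus BBDR.+/+ (2) 5 with an intensity trend, 0 with the t-test and 1 with the covariate (0 to 2). The t-test called 0, 0 and 1 of all 31042 probe sets (3362, 2790 and 2784 at an unadjusted p under 0.05), and limma with the covariate 0, 0 and 115 (2171, 2186 and 3550).

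The numbers of the replicates are not stated to pair arrays, and with 2 pairs per comparison the correlation of same-numbered deviations (0.11 to 0.26) cannot settle it. With a replicate block, 4, 2 and 2 member genes were called, which added, post-hyperglycemia versus BBDR.+/+, Cd14 (adjusted p = 0.00931), Irak3 (0.0446) and Tnfaip3 (0.0386), Irak3 post- versus pre-hyperglycemia (0.0434) and Tnfaip3 pre-hyperglycemia versus BBDR.+/+ (0.0364), and 10, 5 and 3 pathway genes, of 2273, 1191 and 408 calls in all.

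Signs changed with the covariate, with other centring and with arrays left out. Post-hyperglycemia versus BBDR.+/+, the covariate gave 0.50 for Cd14, -0.49 for Il1b, -0.77 for Tlr4, -0.56 for Tnfaip3 and 0.12 for Cd36, and post- versus pre-hyperglycemia 0.31 for Lbp, 1.04 for Nfkbia, -0.85 for Tlr4 and 0.13 for Cd36. Since it separates the post-hyperglycemia arrays from the others, these signs do not show a direction. The other sign changes were of differences that were not called. Nfkbia post-hyperglycemia versus BBDR.+/+ was -0.024 with quantile normalization and -0.19 to 0.22 leaving out each array (below 0 without BBDR.+/+ replicate 1 or post-hyperglycemia replicate 2). Ly96 post- versus pre-hyperglycemia was 0.028 with ribosomal centring and -0.13 to 0.067 leaving out each array (above 0 without post-hyperglycemia replicate 2 or pre-hyperglycemia replicate 1). Leaving out each array, Tlr4 there was -0.16 to 0.17 (below 0 without replicate 2 of either group) and Tnfaip3 -0.32 to 0.053 (above 0 without pre-hyperglycemia replicate 1). Pre-hyperglycemia versus BBDR.+/+, Irak3 was -0.11 to 0.020 (above 0 without BBDR.+/+ replicate 1) and Tlr2 -0.098 to 0.015 (above 0 without BBDR.+/+ replicate 2). A fit with a lone array in a group assumes that it varies like the others. A rank product with a gamma approximation, which treats the pairs of arrays as independent, was not used, since most of its calls on simulated data were false. The rank product of the study's methods was not run, so this says nothing about it.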
